A study of Mus musculus with 6 samples.

Results

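The members are the probes for immunoglobulin chain transcripts, the messages of the heavy and light chains that make up antibodies and B cell receptors. They were chosen by words in the array's own annotation, a description naming an immunoglobulin or Ig kappa, heavy or lambda chain, or a gene name starting with Igk, Igh- or Igl. This gave 114 of the 41174 probes on the array, and 91 of them were kept for testing because the scanner software marked them well above background on 3 or more of 6 arrays of either genotype. By chain, 43 were kappa probes with 33 kept, 61 were heavy-chain probes with 50 kept, 8 were lambda probes with all 8 kept, and 2 were probes for Igll1, a part of the surrogate light chain of precursor B cells, with 0 kept. The detection values that chose the 91 are a description and support nothing. On these, 77 members were detected on all 6 arrays, 14 on 3 to 5 arrays, 11 on 1 or 2 arrays and 12 on none.

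The arrays measured total RNA of naïve, untreated whole lungs of male mice aged 8 weeks, 3 wild-type and 3 Nogo-A/B knockout lungs, named by their labels as wild type 11, 12 and 13 and knockout 1, 11 and 12. Nogo-A and Nogo-B are proteins of the endoplasmic reticulum that the gene Rtn4 encodes, and the knockout is of both. The labels give no strain, litter, housing or cell type of deletion, and they name no treatment. Per the design text, each group holds 3 separate biological replicates. The question the comparison answers is which lung transcripts differ when Nogo-A and Nogo-B are absent.

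An antibody is built from 2 kinds of chain, a heavy chain and a light chain that is either kappa or lambda. A B cell joins variable, diversity and joining segments of its genes, so that each clone of cells carries its own variable region on a shared constant region. The heavy-chain constant region sets the class, with mu for IgM, gamma for IgG and alpha for IgA, and a B cell can exchange mu for another class. Plasma cells fill most of their messenger RNA with these chains, and in the lung they lie around the airways, where IgA is passed into the secretions. A probe to a variable segment therefore reads the cells that use that segment, and a probe to a constant region reads all cells of that class. Fewer cells of a type and less RNA per cell cannot be told apart in RNA of a whole lung.

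All probes were 60 bases long, and several members resemble each other closely. Of all pairs of members, 46 were at least 80% identical over 40 or more aligned bases, and 51 of the 114 members were in such a pair. No such pair crossed from one chain to another. The signal of one probe can therefore hold RNA of related segments, and members are not independent measurements. The first sequences shown are those of 4 kappa probes that were higher in the knockout at an unadjusted p under 0.05, written 5′ to 3′ as in the array files. Each holds the letters CAGAAACCAG (in capitals), which lie in the second framework of kappa variable regions, a stretch that many kappa segments share.
LOC669091: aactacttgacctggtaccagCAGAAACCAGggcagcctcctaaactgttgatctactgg
LOC637063: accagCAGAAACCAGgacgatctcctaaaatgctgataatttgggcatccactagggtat
BC080787: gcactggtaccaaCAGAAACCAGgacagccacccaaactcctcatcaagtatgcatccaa
ENSMUST00000101328: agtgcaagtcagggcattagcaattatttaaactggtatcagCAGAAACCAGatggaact
These probes lie on mm7 chromosome 6, LOC669091 at chr6:70359014-70359073 (minus strand), LOC637063 at chr6:70062233-70062292 (minus strand), BC080787 at chr6:70625849-70625908 (plus strand) and ENSMUST00000101328 at chr6:68675230-68675289 (minus strand). The names are those of the array files, which assign them to kappa chain transcripts, and the exon or intron at these positions was not analysed here.

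The next pair shows how alike 2 members can be, with the 43 bases that both hold in capitals. The pair lies in the variable segments of the heavy-chain locus on mm7 chromosome 12, LOC628098 at chr12:111283794-111283853 and a probe named Ighg at chr12:111380688-111380747, both on the minus strand.
LOC628098: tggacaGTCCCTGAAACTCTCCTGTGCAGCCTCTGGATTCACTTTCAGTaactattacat
Ighg: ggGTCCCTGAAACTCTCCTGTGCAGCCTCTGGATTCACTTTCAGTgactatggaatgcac
The heavy-chain probes for the class are shown because the names in the files do not tell it in every case. The files name the first 2 Igh-VJ558, after a family of variable segments. Both lie on the minus strand of mm7 chromosome 12, at chr12:110781031-110781090 and chr12:110781289-110781348. The nearer is 5.0 kb from a probe described as a hypothetical I alpha polypeptide (chr12:110786288-110786346), called the I alpha probe here. Both alpha-side positions are beyond gamma 1 as seen from mu. In the RefSeq gene order (GRCm38) this is the place of Igha, the alpha constant gene. The first 2 probes are called alpha-side probes here, by position. The 2 probes named Igh-1a, for gamma 2a, are on an unplaced part of chromosome 12, at chr12_random:5440237-5440296 and, over a longer span, at chr12_random:5439095-5439470 (plus strand).
alpha-side, first: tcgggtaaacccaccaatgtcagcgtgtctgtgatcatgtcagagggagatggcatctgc
alpha-side, second: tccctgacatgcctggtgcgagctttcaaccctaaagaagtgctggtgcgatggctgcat
Igh-1a, first: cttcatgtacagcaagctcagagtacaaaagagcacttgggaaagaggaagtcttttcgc
Igh-1a, second: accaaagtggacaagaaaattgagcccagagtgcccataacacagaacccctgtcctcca
The last pair are lambda probes, with 19 shared bases in capitals. Each matches the genome over a span of 21.8 kb on mm7 chromosome 16, from a lambda variable segment to a joining segment, at chr16:18612973-18634787 and chr16:18612988-18634805 (minus strand). They read the joined message, since 60 bases span the join.
Igl-V1, first join probe: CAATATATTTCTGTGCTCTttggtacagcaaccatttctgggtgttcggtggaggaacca
Igl-V1, second join probe: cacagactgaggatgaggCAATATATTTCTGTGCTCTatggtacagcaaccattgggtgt

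Signals are log2 of the scanner's processed signal over each array's 75th percentile, so that 1 unit is a doubling, and a difference is knockout minus wild type on that scale. On single arrays 68.9% to 78.0% of all probes were detected, and precision is limited by the small number of arrays. The arrays were scanned on 2 days, day 1 with wild type 13, knockout 1 and knockout 11, and day 2 with wild type 11, wild type 12 and knockout 12. Wild type 13 and knockout 1 were on slide 1, knockout 11 was on slide 2, and all arrays of day 2 were on slide 3. Day 2 and slide 3 therefore cannot be told apart. Of 30505 probes tested in limma, 2 (0.00656%) passed an adjusted p of 0.05, both lower in the knockout, a probe for Rtn4 and AK080804. Both were well above background on 3 of 3 wild-type and 0 of 3 knockout arrays. The lung markers were high on all 6 arrays, for example Sftpc, a surfactant protein of alveolar cells, at 7.74 to 8.70. The B cell markers Cd79b, a signalling part of the B cell receptor, and Ms4a1, the surface protein CD20, were measured on all 6 arrays, at 1.69 to 2.33 and -0.48 to 1.01.

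No immunoglobulin probe passed the adjusted threshold, against the 0.00656% of all probes that did, and every member's adjusted p in limma was 0.9999. On average most members were nonetheless higher in the knockout lungs. The difference was above 0 for 77 of 91 members (84.6%), against 54.4% of all probes tested, and the median difference was 0.33 against 0.02. At an unadjusted p under 0.05 in limma, 7 of 91 members (7.69%) were higher, against 0.305% of all probes, and 0 were lower, against 0.557%. For 9 of 91 members (9.89%) every knockout array was above every wild-type array, against 2.34% of all probes, and for 0 every knockout array was below, against 1.53%. The 91 members share B cells, segments and bases, so these shares do not count independent events. The count of 7 changed with single arrays, to 28 without wild type 13 and to 4 without wild type 11, without wild type 12 or without knockout 12, while 5.37%, 0.108%, 0.0885% and 2.02% of all probes were then higher at that p.

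Split by chain, the median difference was 0.38 for the heavy chain, with 42 of 50 probes above 0, and 0.34 for kappa, with 27 of 33 above 0. It was 0.13 for lambda, with 8 of 8 above 0. The medians by array differed between lungs of a group. For the heavy chain they were -3.78 in wild type 11, -3.84 in wild type 12 and -2.92 in wild type 13, and -3.45 in knockout 1, -3.08 in knockout 11 and -2.33 in knockout 12. Wild type 11 and 12 were thus the lowest of the 6, while wild type 13 was above knockout 1 and knockout 11. The kappa medians were -4.58, -4.84 and -3.97 in wild type 11, 12 and 13, and -4.00, -4.56 and -3.86 in knockout 1, 11 and 12. The lambda medians were -3.03, -2.30 and -2.24 in the wild-type lungs and -2.29, -2.50 and -2.31 in the knockout, and wild type 11 was the lowest array for 8 of 8 lambda probes. Over all 91 members, wild type 11 or wild type 12 was the lowest array for 67 (73.6%), against 30.3% of all probes, and knockout 12 was the highest for 40 (44.0%), against 23.8%.

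Wild type 11, wild type 12 and knockout 12 were all scanned on day 2, so the genotype difference was also taken within each day. Within day 1, where wild type 13 is the only wild-type array, the median difference of the members was -0.34 and 19 of 91 were above 0. Within day 2, where knockout 12 is the only knockout array, it was 0.99 and 86 of 91 were above 0. For all probes the medians were -0.06 and 0.08. The heavy-chain medians were -0.45 within day 1 (7 of 50 above 0) and 1.15 within day 2 (49 of 50 above 0). The kappa medians were -0.15 (12 of 33 above 0) and 0.86 (29 of 33), and those of lambda -0.21 (0 of 8) and 0.38 (8 of 8). The interaction of genotype and day was tested in limma. It was below an unadjusted p of 0.05 for 53 of 91 members (58.2%), against 12.1% of all probes, and 0 members or other probes passed the adjusted threshold. It had that p for 38 heavy-chain, 15 kappa and 0 lambda probes. A difference above 0 within both days was found for 16 of 91 members (17.6%), against 20.3% of all probes.

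The days themselves were compared next, over both genotypes. Between days, 0 of 91 members passed an adjusted p of 0.05 in limma, against 15.9% of all probes, and 1 member reached an unadjusted p under 0.05, against 31.0%. Under 4 other ways of scaling or correcting the signal 1 member passed, and without knockout 12 the count was 13. The shares of all probes in these fits are not given, so neither count is read as particular to the members. With day as a block the median residual SD of all probes fell from 0.33 to 0.24, while that of the members was 0.55 without and 0.58 with the block. The block left the members' median difference at 0.29. It also left 7 of 91 higher and 0 lower at an unadjusted p under 0.05, against 0.833% and 1.31% of all probes. The spread of the members between lungs of a genotype was thus not narrowed by the block.

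Of the 7 members higher at an unadjusted p under 0.05, 5 were kappa probes, and 3 of these had like differences on both scan days. LOC669091 measured -3.80, -4.26 and -3.70 in wild type 11, 12 and 13 and -2.84, -2.84 and -2.67 in knockout 1, 11 and 12. All 3 knockout lungs were above all wild-type lungs, and the knockout values lay close together. The knockout was higher by 1.14 (SE 0.21, n = 3 and 3), a 2.20-fold higher signal, at an unadjusted p of 0.00139 in limma. It was 0.87 within day 1 and 1.36 within day 2, so both days gave the same sign. LOC669091 kept its direction under 18 of 18 alternative settings, with an unadjusted p under 0.05 in 18.

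ENSMUST00000066275 (chr6:70092051-70092110, minus strand) measured -1.78, -2.20 and -1.74 in the wild-type lungs and -1.02, -1.12 and -0.80 in the knockout. The knockout was higher by 0.92 (SE 0.20, unadjusted p 0.00370), with 0.67 within day 1 and 1.19 within day 2. LOC637063 measured -4.58, -5.27 and -4.87 in the wild-type lungs and -3.82, -4.15 and -3.86 in the knockout, a difference of 0.96 (SE 0.24, unadjusted p 0.00605). Its differences within the days were 0.88 and 1.07. The groups of both probes did not overlap. The direction held in 18 of 18 alternatives for both, with an unadjusted p under 0.05 in 17 for ENSMUST00000066275 and 15 for LOC637063. LOC637063 was smaller, at 0.52, after normexp background correction.

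The other 2 kappa probes at that p had smaller differences that rested more on day 2. BC080787 measured -4.14, -4.23 and -3.79 in the wild-type lungs and -3.70, -3.55 and -3.33 in the knockout, a difference of 0.53 (SE 0.20), with 0.17 within day 1 and 0.86 within day 2. One ENSMUST00000101328 probe measured -6.13, -5.94 and -5.73 in the wild-type lungs and -5.63, -5.43 and -4.82 in the knockout, a difference of 0.64 (SE 0.26), with 0.21 and 1.22 within the days. This probe was dim, well above background on 2 wild-type and 3 knockout arrays. The other probes of that transcript, at chr6:68675092 and chr6:68675211, gave 0.34 and 0.19, and -0.28 and -0.49 within day 1. The probe at chr6:68675211 is 97.6% identical to the dim probe over 41 aligned bases, and it did not repeat the difference of 0.64. Igk-V38 was the sixth kappa probe whose groups did not overlap, with -4.95, -4.94 and -5.08 in the wild-type lungs and -3.80, -4.88 and -4.77 in the knockout, where knockout 1 alone stood apart.

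The letters CAGAAACCAG, the longest run that 4 of these kappa probes share, were looked for on both strands after the values were seen. They were present in 4 of the 43 kappa members, which are 4 of the 5 kappa probes higher at an unadjusted p under 0.05, and in 0 heavy-chain and 0 lambda members. On the whole array 24 probes (0.0583%) held them. The 29 tested kappa members without them had a median difference of 0.30, from -1.28 to 0.92. Of the 20 other array probes with the letters, 16 were tested, with a median of 0.08, and 0 were higher at that p. Among these, 2 are described as kappa chains in words that the choice of members did not cover. LOC213481, from a hybridoma kappa message, had a difference of 1.09 at an unadjusted p of 0.331, and U22906, the kappa variable region of a monoclonal antibody, had -0.20 at 0.650. A match is a description of the probe and not a site, and the 4 probes were the ones from which the letters were taken.

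ENSMUST00000066275 does not hold these letters. It comes from the third framework, and its closest relative among the members, LOC669070, shares 14 bases with it in 1 run (in capitals).
ENSMUST00000066275: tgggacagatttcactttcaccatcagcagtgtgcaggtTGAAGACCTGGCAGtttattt
LOC669070: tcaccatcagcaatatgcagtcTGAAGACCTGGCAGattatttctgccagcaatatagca
LOC669070 measured -6.06, -5.63 and -5.46 in the wild-type lungs and -4.94, -6.32 and -4.17 in the knockout, a difference of 0.57 (SE 0.55), with knockout 11 the lowest of all 6. Kappa probes at least 80% identical to each other had differences that were closer together than kappa probes at large, with a median gap of 0.16 over 14 tested pairs against 0.38 over all 528 pairs. The same gap was 0.22 over 25 pairs of heavy-chain probes against 0.38 over 1225. For lambda it was 0.089 over 2 pairs against 0.087 over 28, so that similar pairs were no closer there.

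Other kappa members were lower in the knockout or differed widely between lungs. ENSMUST00000032040 had the lowest difference of all 91 members, -1.28 (SE 0.67, unadjusted p 0.103), with -2.65, -4.59 and -2.03 in the wild-type lungs and -4.02, -4.85 and -4.26 in the knockout. Wild type 12 lay among the knockout lungs, so the groups overlapped. One Igk-V1 probe (chr6:68247287-68247346) spanned the widest range of the 91, with -4.60, -5.37 and -1.39 in the wild-type lungs and -4.13, -3.75 and -2.59 in the knockout. Its difference was -2.55 within day 1 and 2.40 within day 2, with wild type 13 the highest and wild type 12 the lowest of the 6 arrays. The second Igk-V1 probe gave -1.45 and 1.56. No kappa member carries a constant-region name, so the kappa chain as a whole has no probe here.

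For the heavy-chain class 13 probes were counted as constant-region, with the I alpha probe, described below, among them. Of the 13, 8 were above 0, against 54.4% of all probes, with a median difference of 0.36 against 0.02. The mu probes, for IgM, were mixed. The Igh-6 probe at chr12:110940000-110940059 measured 2.84, 2.97 and 3.06 in the wild-type lungs and 3.68, 3.07 and 3.10 in the knockout, with a difference of 0.33 (SE 0.22, unadjusted p 0.191). The groups of this probe did not overlap, but the nearest arrays differed by less than the spread within a group. The second Igh-6 probe, 2.77 kb away, differed by -0.10 (SE 0.34), and a mu constant-region probe named ENSMUST00000003582 by -0.48 (SE 0.49), with 2.54 in wild type 13 and 0.45 to 1.40 on the other 5 arrays. Probes to the same constant gene thus differed in sign.

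Gamma 1, named Igh-4, was read by 3 probes, with differences of -0.25, 0.36 and -0.79 and SEs of 0.44, 0.40 and 0.75. The third measured -6.09, -5.86 and -3.47 in the wild-type lungs and -6.10, -6.47 and -5.22 in the knockout, with wild type 13 far above the rest. An Ighg probe for the gamma constant region (chr12_random:5421654-5421713) gave 1.07 (SE 0.58, unadjusted p 0.116). It measured -2.85, -3.21 and -1.73 in the wild-type lungs and -1.64, -2.41 and -0.54 in the knockout, and was -0.29 within day 1 and 2.49 within day 2.

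The first Igh-1a probe, for gamma 2a, an IgG class made in responses to viruses and bacteria, had the widest difference of all members. It measured -4.33, -5.67 and -3.84 in wild type 11, 12 and 13 and -3.43, -1.81 and -1.90 in knockout 1, 11 and 12. Knockout 11 and 12 were well above all wild-type lungs, while knockout 1 lay just above wild type 13. The difference was 2.23 (SE 0.63), a 4.70-fold higher signal, with unadjusted p 0.0117 and adjusted p 0.9999 in limma. Its values were 1.22 within day 1 and 3.10 within day 2, and over single arrays left out it ranged from 1.71 to 2.76. After normexp background correction it was 1.52. The second Igh-1a probe did not repeat this size, with -4.70, -5.09 and -3.75 in the wild-type lungs and -4.36, -3.75 and -3.42 in the knockout, a difference of 0.67 (SE 0.42, unadjusted p 0.158), and -0.30 within day 1. The name Igh-1a is that of an allele, and which allele these mice carry was not analysed here.

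The alpha-side probes had differences close to each other, none at an unadjusted p under 0.05. The first measured 3.94, 3.82 and 4.74 in the wild-type lungs and 4.56, 5.12 and 5.03 in the knockout, a difference of 0.74 (SE 0.31, unadjusted p 0.0540). The second measured 2.25, 2.14 and 3.44 in the wild-type lungs and 3.04, 3.52 and 3.67 in the knockout, a difference of 0.80 (SE 0.40, unadjusted p 0.0896), and the third, between them, gave 0.79 (SE 0.40). Wild type 13 reached the knockout lungs in all 3, so the groups overlapped. Within day 1 the differences were 0.10, -0.16 and -0.14, and within day 2 they were 1.16, 1.47 and 1.35. The I alpha probe was taken, from its description, to read the sterile message made before a cell switches to alpha. It measured -4.29, -4.39 and -4.40 in the wild-type lungs and -4.51, -5.01 and -3.77 in the knockout, a difference of -0.07 (SE 0.33).

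The other 37 heavy-chain probes were not assigned to a class, and 34 of them were above 0, with a median difference of 0.40. Among them are 2 that carry the name Ighg but resemble variable segments. Within day 1 only 3 of the 37 were above 0, with a median of -0.51, and within day 2 it was 36 of 37, with a median of 1.15. One reached an unadjusted p under 0.05, an Igh-VJ558 probe at chr12:111118840-111118898. This probe is annotated to the same source message as the 3 alpha-side probes. It measured -2.77, -3.04 and -1.80 in the wild-type lungs and -1.59, -1.49 and -1.75 in the knockout, a difference of 0.93 (SE 0.34, unadjusted p 0.0342), with wild type 13 within 0.26 of the mean of the knockout lungs of its day. LOC628098 and the Ighg probe that shares 43 bases with it followed each other closely. LOC628098 measured -2.87, -2.94 and -1.85 in the wild-type lungs and -1.85, -1.83 and -1.87 in the knockout, and the Ighg probe -2.32, -2.42 and -1.24 in the wild-type lungs and -1.29, -1.32 and -1.37 in the knockout. Wild type 13 and the 3 knockout lungs were at one level, and wild type 11 and 12 about 1 unit below, which gave differences of 0.70 (SE 0.32) and 0.67 (SE 0.34). The other Ighg probe of this kind (chr12_random:5420526-5420584), 81.4% identical to the variable-segment probe LOC619994 over 43 aligned bases, gave -0.32 (SE 0.33).

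A second set of variable segments is shown because its members share the letters TGAGGACTCTGC of the third heavy-chain framework (in capitals). The letters, the longest run common to the 6, were searched on both strands and are in 6 of 61 heavy-chain members, 0 kappa and 0 lambda members, and 14 array probes (0.0340%).
Igh-VJ558: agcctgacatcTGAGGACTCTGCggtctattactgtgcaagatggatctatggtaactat
LOC380824: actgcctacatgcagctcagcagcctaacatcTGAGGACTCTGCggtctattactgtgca
AF210281: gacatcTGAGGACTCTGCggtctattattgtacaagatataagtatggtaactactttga
AF218659: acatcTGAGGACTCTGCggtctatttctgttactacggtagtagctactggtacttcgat
The Igh-VJ558 probe of this set (chr12:112729499-112729558) measured -1.31, -1.30 and -0.17 in the wild-type lungs and -1.08, -0.69 and -0.02 in the knockout. Wild type 13 and knockout 12 were the highest, and the difference was 0.33 (SE 0.42). Over the 6 the differences ran from 0.08 to 0.49, with a median of 0.38, the same as the 0.38 of the 44 heavy-chain members without the letters. Their median was -0.67 within day 1 and 1.30 within day 2. The interaction of genotype and day had an unadjusted p under 0.05 in limma in 6 of 6. It had that p in 32 of the 44 heavy-chain members without the letters and in 12.1% of all probes, so it was not particular to the 6. In 1 further heavy-chain probe, ENSMUST00000084870, the order was another, with 0.73, 0.79 and -0.64 in the wild-type lungs and 0.99, 0.05 and 0.45 in the knockout, where wild type 13 was the lowest.

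The lambda probes had the smallest median difference of the 3 chains. All 8 are named Igl-V1, and their differences ran from 0.04 to 0.27, each smaller than the lambda spread between lungs of a group (SD of the array medians 0.32). The first join probe measured -2.81, -2.01 and -2.02 in the wild-type lungs and -2.11, -2.39 and -2.22 in the knockout, a difference of 0.04 (SE 0.27). The second measured -2.40, -1.70 and -1.32 in the wild-type lungs and -1.57, -1.77 and -1.71 in the knockout, a difference of 0.13 (SE 0.30). A probe 1.51 kb beyond the join (chr16:18611466-18611525) measured 0.46, 1.13 and 1.01 in the wild-type lungs and 1.05, 0.84 and 0.84 in the knockout, a difference of 0.05 (SE 0.23). Wild type 11 was below the other 5 lungs in all 3 probes. Whether lambda differed from kappa or the heavy chain in its response to genotype was not tested.

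Members near the detection limit were measured poorly. Of the members detected on exactly 3 arrays, LOC672329 ran from -6.87 to -5.02 and was detected on 0 wild-type and 3 knockout arrays. It passed the filter through the knockout arrays alone, and the signals of the groups overlapped. LOC668589 ran from -7.27 to -4.24 with 1 wild-type and 2 knockout arrays, and LOC637011 from -7.54 to -4.36 with 2 and 1. Just outside, on exactly 2 arrays, LOC238427 ran from -8.65 to -5.41 with 0 wild-type and 2 knockout arrays. ENSMUST00000089795 ran from -8.09 to -6.30 with 0 and 2, and D17387, LOC641008 and an ENSMUST00000089796 probe had 1 of each.

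Probes outside the choice of words that share bases with members gave like values on average. They were found by those bases, so they are not independent measurements. An exact run of 25 or more bases was shared with a member by 22 probes outside the choice, among them heavy-chain messages of monoclonal antibodies. Of these 21 were tested, with 20 above 0, against 54.4% of all probes, and a median difference of 0.32 against 0.02. Within day 1 the median was -0.69, with 2 of 21 above 0, and within day 2 it was 1.26, with 20 of 21.

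Genes of B cells were also higher on average in the knockout lungs, without a gene past the unadjusted p. Of 18 B cell identity genes, 17 were above 0 against 54.4% of all probes, with a median of 0.34 against 0.02, and 0 were called in either direction. Their summed linear level, in units of the 75th percentile, was 9.84 to 14.4 in the wild-type lungs and 11.9 to 16.5 in the knockout. Pax5, the factor that holds B cell identity, measured -5.56, -4.69 and -3.39 in the wild-type lungs and -2.16, -3.65 and -4.38 in the knockout. Wild type 11 was the lowest array for 14 of the 18, as for the lambda probes, against 5486 of all 30505 probes. Knockout 1 was the highest for 11 of the 18, where it was the highest for 10 of the 91 immunoglobulin members and 19.1% of all probes. Within the days the median was 0.11 and 0.36. The part of B cell number in the immunoglobulin signals was not tested.

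Genes of plasma cells and antibody secretion were split, with 6 of 12 above 0, against 54.4% of all probes. Their median was -0.03, against 0.02, and 0 were called. Jchain, whose product joins IgA and IgM into polymers, measured -0.77, -0.90 and 0.65 in the wild-type lungs and -0.04, 0.27 and 0.74 in the knockout. Its difference was 0.67 (SE 0.46, unadjusted p 0.199), with -0.53 within day 1 and 1.57 within day 2. Wild type 13 and knockout 12 were the highest and wild type 11 and 12 the lowest. In the alpha-side probes wild type 11 and 12 were also the lowest, but knockout 11 and knockout 12 were the highest. Tnfrsf17, the survival receptor BCMA of plasma cells, gave 0.77 (SE 0.41), and Xbp1, a secretion factor that epithelium also uses, gave -0.59 (SE 0.42). Of the 12 genes many are also made by other lung cells, and the list's summed level was 36.6 to 55.4 in the wild-type lungs and 33.5 to 50.3 in the knockout.

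Of 7 tested genes for recombination and class switching, 3 were above 0, with a median of -0.00 and 0 called. Of all probes 54.4% were above 0, with a median of 0.02. Rag1 and Rag2, which cut immunoglobulin genes for joining, were not detected on enough arrays to be tested. Of 11 antibody receptors and transporters, 3 were above 0, with a median of -0.25 and 0 called. Pigr, which carries IgA across epithelium, measured -2.07, -1.67 and -0.65 in the wild-type lungs and -1.73, -1.01 and -1.22 in the knockout, a difference of 0.14 (SE 0.41). Of 7 tested B cell survival and homing factors, 3 were above 0. At an unadjusted p under 0.05 in limma 1 was higher, against 0.305% of all probes. That gene was Ccl19, a chemokine of lymphoid tissue, with a difference of 0.64 (SE 0.26). It measured 1.58, 1.53 and 0.83 in the wild-type lungs and 2.09, 1.99 and 1.78 in the knockout.

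Markers of other blood cells were measured for comparison. Of 12 T cell genes, 9 were above 0, against 54.4% of all probes, with a median of 0.16 against 0.02. Cd3d, a part of the T cell receptor complex, was higher (0.50, SE 0.20) at an unadjusted p under 0.05 in limma. Of all probes 0.305% were higher at that p. Cd3g and Cd3e, of the same complex, gave 0.42 (SE 0.20) and -0.20 (SE 0.38). Of 11 neutrophil genes, 0 were above 0, against 54.4% of all probes, with a median of -1.12 against 0.02. Of the 11, 3 (Ltf, Mmp9 and Cd177) were lower at that p, against 0.557% of all probes. The median of the 11 was 0.29 within day 1 and -2.77 within day 2. S100a8, an abundant neutrophil protein, measured 6.18, 5.64 and 3.33 in the wild-type lungs and 2.95, 4.71 and 2.83 in the knockout. Wild type 11 and 12, the lungs lowest in heavy-chain signal, were thus highest in this gene, and knockout 12 was lowest. Their part in the immunoglobulin differences was not tested.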

How the data were processed

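The authors deposited Agilent scanner files of 6 arrays (design 014868), 1 colour, with an intensity per spot. Per the file headers they come from Feature Extraction 9.5.1.1, which had background-subtracted and detrended the processed signal, while the submitters' processing notes name 9.1. The authors' series matrix holds log2 values, and no source used here says how they were made. Outlier-flagged spots were removed and repeat spots averaged (30 probes dropped, 0 members), and log2 of the processed signal minus each array's 75th percentile was used. Probes well above background on 3 or more of 6 arrays were fitted one by one in limma 3.58.1 (R 4.3.3; lmFit, eBayes, two-sided, Benjamini-Hochberg over all 30505), without covariates, and with scan day as a block, as an interaction and within days. On each day 1 genotype is a lone array, taken to vary like the rest.

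Members and lists were chosen with earlier results of these data known. Named members are constant-region probes, up to 8 per chain with the smallest p, up to 3 with the highest mean, those at the detection limit, and up to 4 genes per list; others were singled out after their values were seen. Heavy-chain classes were assigned after seeing the files. A listed gene is its tested probe with the highest mean. Positions are those of the array files (mm7), and 50 of 114 members were found in a RefSeq table (GRCm38). Alternatives were quantile, median and normexp processing, the authors' values, filters, blocks and single arrays left out. The fit was tested on simulated data. Tables were made in Python 3.11.15.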

Additional observations from a re-analysis of the deposited data

How the results depend on the processing

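Of 21 named members, 9 kept their direction under all alternatives run and 12 changed sign under at least 1, none of them past the adjusted threshold. The count of all probes past an adjusted p of 0.05 in limma, 2 as reported, was 1 under quantile normalization and with no filter on dim probes. It was 0 with detection on all 6 arrays, 0 with 1 probe for each gene name, 0 within day 1, 0 within day 2, 5 with slide as a random block and 0 to 1 with single arrays left out. The count of members higher at an unadjusted p under 0.05, 7 as reported, was 1 within day 1, 61 within day 2, 14 with slide as a random block and 4 to 28 with single arrays left out. The count lower, 0 as reported, was 17 within day 1 and 0 to 1 with single arrays left out. Between scan days, the count of members past the adjusted threshold was 0 as reported, 1 under quantile, median and normexp processing and on the authors' values, and 0 to 13 with single arrays left out. The shares of all probes between days in these alternatives are not given. Nor are they given for the counts of members higher or lower within days or with slide as a random block. Within each day 1 genotype is a lone array, so its spread could not be measured there. The counts within days and with the slide block are therefore not read as particular to the members. The medians within days were -0.15 and 0.86 for kappa, -0.45 and 1.15 for the heavy chain, and -0.21 for lambda on day 1. The cause was not tested. With 3 arrays a group, differences near the spread between lungs could not be resolved, and dim probes carry more noise.

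Replicate numbers 11 and 12 occur in both groups, but the labels do not say that they pair lungs. Deviations from the group means correlated at -0.30 for number 11 and 0.47 for number 12. With the replicate number as a block, on 2 pairs, 25 members were higher at an unadjusted p under 0.05 in limma. The share of all probes at that p is not given for this block, so the count is not read as particular to the members. With this block 0 of all probes passed the adjusted threshold. The comparison of days with that block could not be fitted, since no residual degrees of freedom were left.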
